A study of Mus musculus with 6 samples.

Results

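The expression of 46 genes that encode histone lysine methyltransferases, their core partners and histone lysine demethylases was studied in mouse cells labelled as alveolar macrophages. Men1 knockout (KO) cells were compared with wild-type (WT) cells. The 46 genes were chosen by symbol from the 15824 genes listed in the expression table, and all 46 were listed and tested. They were grouped by the histone mark each enzyme writes or erases, with 24 genes on the writing side, 16 on the erasing side and 6 family members whose histone substrate is disputed, absent or not lysine methylation.

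RNA was measured in cells labelled as alveolar macrophages, after a flow cytometry sort from lungs of mice aged 8 weeks. Alveolar macrophages patrol the airspaces and clear inhaled particles. The 3 KO libraries came from mice labelled as carrying a Men1 knockout and the 3 WT libraries from mice labelled WT, and no other treatment than the sort is labelled. The labels give neither the Men1 allele, nor a Cre driver, nor the strain, nor the sex, nor whether each library is from its own mouse, so the p-values reflect the spread between these samples alone, and this spread may be technical. Menin, the protein made from Men1, is a scaffold of the MLL1 and MLL2 methyltransferase complexes that write H3K4 methylation at promoters.

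Lysine methylation of histone tails marks chromatin states. In general, methylated H3K4 and H3K36 are found at active promoters and transcribed gene bodies, methylated H3K9 and H3K27 at silenced chromatin, H3K79 methylation over transcribed genes, and H4K20 methylation in a form that changes with the cell cycle and with heterochromatin. Writers carry a SET domain, except for the H3K79 writer DOT1L, and erasers are either flavin-dependent amine oxidases of the LSD family or JmjC-domain dioxygenases. Many of these enzymes come as paralog sets with overlapping substrates, so the level of each paralog was also set against that of its family.

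The 6 libraries held 19955232 to 20151985 counts each, and 11817 genes passed the filter on low counts. Men1 had 150, 149 and 165 counts in KO libraries 1, 2 and 3, against 639, 594 and 603 counts in WT libraries 1, 2 and 3. Its level was 7.88 ± 0.458 CPM in KO and 29.98 ± 1.20 CPM in WT (SD, n = 3 each; CPM, counts scaled to library size), which is a 3.80-fold lower level in KO (log2 fold change -1.93, SE 0.0684; adjusted p = 7.24e-24 by edgeR's quasi-likelihood test). Of the alveolar macrophage markers, Siglecf was low in both groups (1.34 ± 0.154 CPM in KO and 2.06 ± 0.381 CPM in WT), Fabp1 was at 0 in all 3 KO libraries and in 2 of 3 WT libraries, and Plet1 had at most 2 counts in any library. Of the 7 alveolar markers tested, 3 were higher and 4 lower in KO, with a median log2 fold change of -0.27. Atp6v0d2 (60.8 ± 0.928 CPM in KO and 118.7 ± 3.995 CPM in WT), Pparg (13.07 ± 1.08 CPM in KO and 18.96 ± 0.534 CPM in WT) and Itgax were among the lower ones. Marco, Chil3 (13.94 ± 0.676 CPM in KO and 6.94 ± 0.349 CPM in WT) and Trim29 (1.63 ± 0.323 CPM in KO and 0.425 ± 0.280 CPM in WT) were the higher ones. Ear1 and Ear2 had at most 4 counts in any library, and Car4 and Krt79 were not listed. Siglecf, Fabp1, Plet1, Ear1 and Ear2 were thus low or near 0 in both groups. These markers do not by themselves bear out the label of the cells. The 11 listed markers summed to 1254 to 1297 CPM in KO and 367.3 to 381.0 CPM in WT, most of it in KO from the scavenger receptor gene Marco (1137 ± 22.8 CPM in KO and 172.3 ± 2.17 CPM in WT). General macrophage markers were abundant, with a summed level of 32480 to 33250 CPM in KO and 27630 to 28780 CPM in WT over 8 genes. Libraries of a group differed little, with a chi-square per gene of 1.37 to 1.59 within a group and 59.2 to 62.0 between groups, and among the 46 genes a change as small as 1.05-fold passed the test.

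Of the 46 genes, 10 were higher and 18 lower in KO at an adjusted p of 0.05, and 18 did not pass (edgeR's quasi-likelihood test, Benjamini-Hochberg over all genes tested). Over all genes tested, 69.2% passed, 34.4% as higher and 34.9% as lower, against 60.9% of the 46 genes. Most of the changes were small. The median absolute log2 fold change was 0.18 over the 46 genes, against 0.24 over all genes tested, and the median signed log2 fold change was -0.06, against 0.00. A change of at least 1.5-fold was passed by 1 gene that was higher in KO, Kmt5c, and by 3 genes that were lower, Dot1l, Suv39h2 and Ezh2, where the background was 8.4% higher and 9.39% lower. Just short of 1.5-fold were Kdm4b, with a log2 fold change of 0.56, and Jmjd1c, with -0.56. The KO and WT libraries did not overlap in CPM for 31 of the 46 genes (67.4%), against 71.2% of all genes tested. In bulk RNA of sorted cells, fewer cells of a type and less RNA per cell cannot be told apart.

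**Figure D1:**
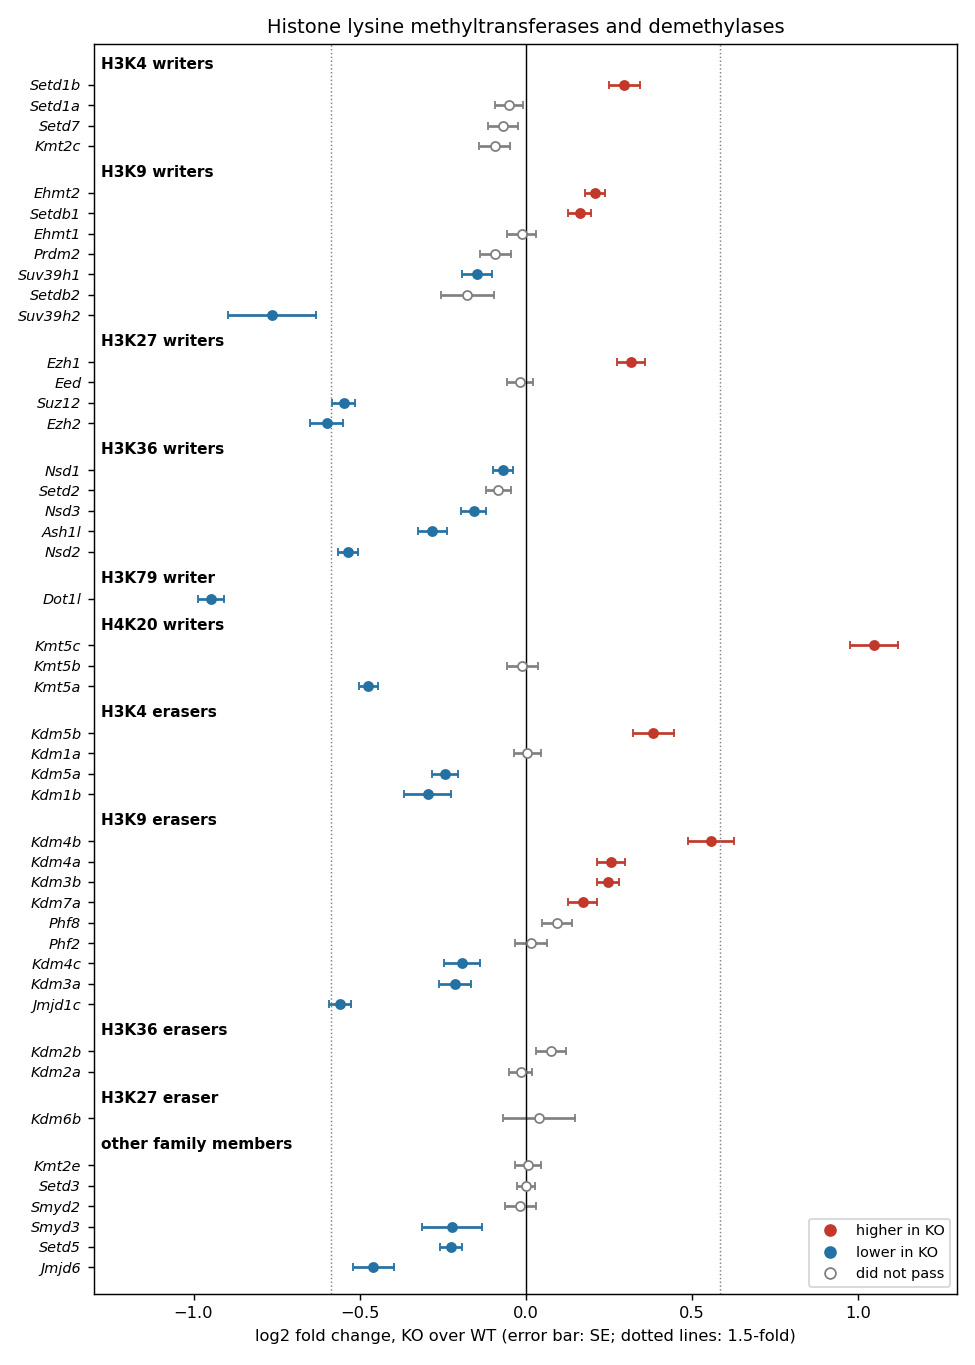
Log2 fold change of each of the 46 genes, KO over WT (x axis; points, fitted values; bars, SE), grouped by the mark written or erased. Filled points passed an adjusted p of 0.05, and the dotted lines mark 1.5-fold; Kmt5c lies to the right of them, and Dot1l, Suv39h2 and Ezh2 to the left.

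The split between directions depended on the unit. Of the called genes among the 46, 35.7% were higher in KO, against 49.6% among all called genes. With the authors' TPM values, the median of all genes tested was itself shifted by -0.12 on the log2 scale, and limma on log2(TPM + 1) called 6 of the 46 genes higher and 32 lower, against a background of 68.3% called. Of those calls, 15.8% were higher among the 46 genes and 29.3% among all genes. Ehmt2, Setdb1, Kdm4a and Kdm7a, higher in KO by counts, did not pass on this scale. After the shift was subtracted, limma called 10 higher and 17 lower, and these 4 genes passed. Because nothing says that the libraries are separate animals, a wider spread was also assumed. With a coefficient of variation between libraries set at 0.1, where the estimate from the data was 1.66%, 12 of the 46 genes passed, against a background of 37.3%. Those 12 genes were Kmt5c, Ezh1, Kdm4b and Kdm5b, which were higher in KO, and Dot1l, Suv39h2, Ezh2, Suz12, Nsd2, Kmt5a, Jmjd1c and Jmjd6, which were lower.

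**Figure D2:**
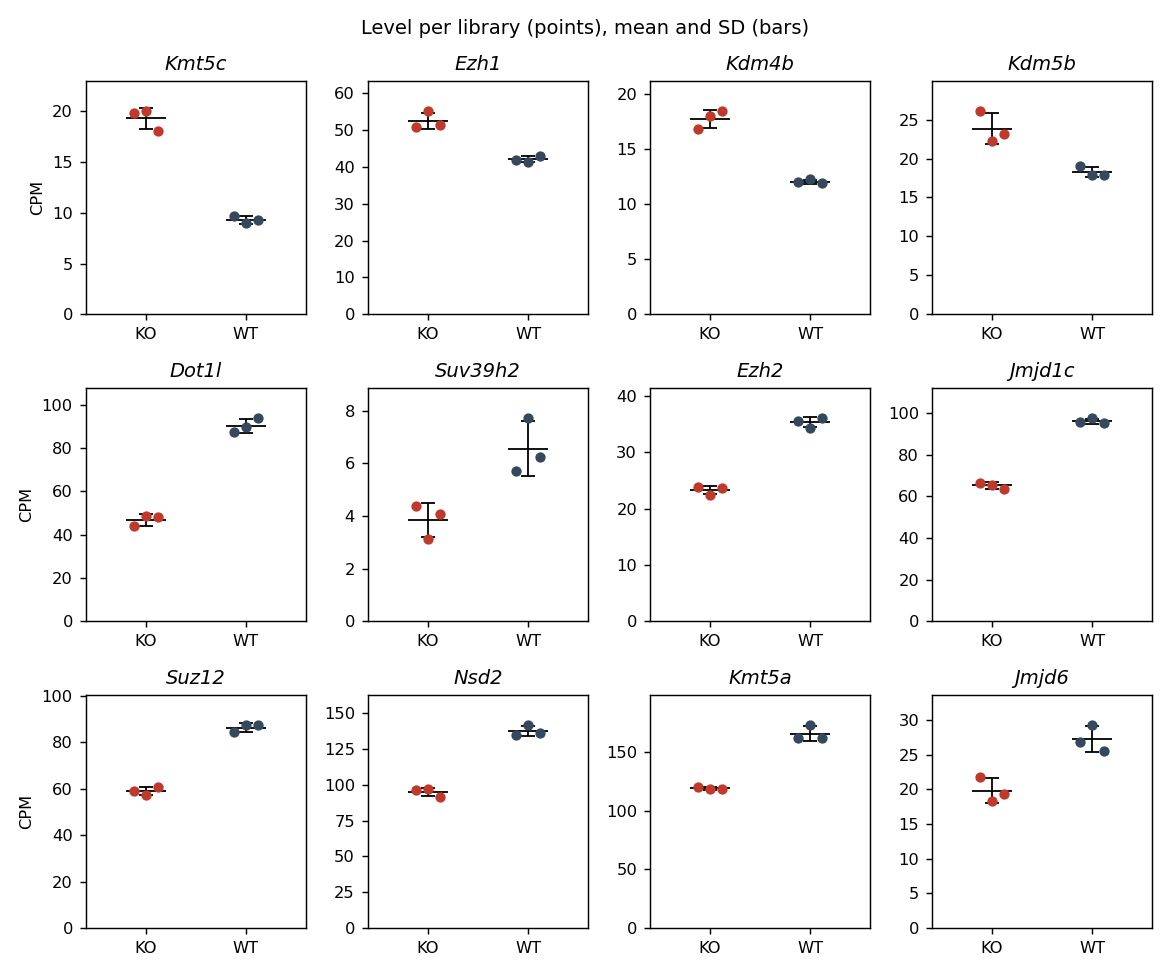
Level in CPM (y axis, from 0) of the 12 genes that also passed with the wider assumed spread, for each of the 3 KO and 3 WT libraries (points), with mean and SD (bars). In all 12 panels the KO and WT points do not overlap; Kmt5c, Ezh1, Kdm4b and Kdm5b are higher in KO and the other 8 lower.

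Polycomb repressive complex 2 (PRC2) writes H3K27 methylation through either EZH2 or EZH1, which are alternative catalytic subunits, and needs SUZ12 and EED as core partners. Ezh2 and Suz12 fell in KO, Ezh1 rose and Eed did not pass. The sequences at the starts of these 3 changed genes are shown because Ezh2 and Suz12 moved together and against Ezh1. They are RefSeq sequences on build GRCm38.p6, written 5′ to 3′ on the strand of the gene, up to 250 bases before the transcript start of the RefSeq promoter table and, for Ezh2, 30 bases around that start. The start used is position 47595030 for Ezh2, which lies inside the annotated span of the gene, 79993106 for Suz12 and 101226463 for Ezh1.
Ezh2, chr6:47595015-47595044, minus strand: gcgATTGGgttgctgcgTTTGGCGCtcggt
Suz12, chr11:79992856-79993105, plus strand: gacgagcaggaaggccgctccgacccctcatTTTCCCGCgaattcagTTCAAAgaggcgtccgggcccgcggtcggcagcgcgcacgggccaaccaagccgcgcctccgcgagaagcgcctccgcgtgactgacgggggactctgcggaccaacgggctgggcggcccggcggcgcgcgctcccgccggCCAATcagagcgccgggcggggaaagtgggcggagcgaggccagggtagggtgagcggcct
Ezh1, chr11:101226464-101226713, minus strand: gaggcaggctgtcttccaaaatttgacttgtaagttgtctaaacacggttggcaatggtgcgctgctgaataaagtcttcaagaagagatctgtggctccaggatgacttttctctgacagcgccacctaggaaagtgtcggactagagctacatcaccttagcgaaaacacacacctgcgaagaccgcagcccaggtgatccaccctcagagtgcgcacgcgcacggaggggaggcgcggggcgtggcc
Capitals mark matches on either strand to 3 short motifs found at promoters of cell-cycle genes. These are E2F sites (TTTCCCGC or TTTGGCGC), the CCAAT box (CCAAT) and the cell-cycle homology region, or CHR (TTTGAA). Within 250 bases before to 30 after the start, an E2F match was present in 480 of 32851 mouse promoter windows (1.46%) and in 3 of 46 windows of the genes studied here (6.52%), which belong to Ezh2, Suz12 and Kmt5c. Promoter windows were at hand for 33 of the 46 genes, some with several starts. CCAAT was present in 36.1% of all windows and in 19 of the 46 (41.3%), and the CHR letters in 17.2% and in 5 of 46 (10.9%). In Suz12 the CHR match, on the minus strand, lies 203 bases before the start and the E2F match 219 bases before it. No motif overlapped another in the printed stretches, and the Ezh1 stretch held none of these letters. CCAAT and CHR matches were also present for Eed, which did not pass and whose sequence is not shown.

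Ezh2 was measured at 23.75, 22.48 and 23.69 CPM in KO libraries 1, 2 and 3, against 35.57, 34.34 and 36.03 CPM in WT libraries 1, 2 and 3. All KO libraries lay below all WT libraries, and the means were 23.3 ± 0.719 CPM in KO and 35.3 ± 0.875 CPM in WT (SD, n = 3 each). Ezh2 was 1.52-fold lower in KO (log2 fold change -0.60, SE 0.0497; adjusted p = 4.34e-13 by edgeR's quasi-likelihood test), and the change no longer reached 1.5-fold without KO replicate 2 or without WT replicate 3. It spans chromosome 6, positions 47530274 to 47595270. Suz12 averaged 59.1 ± 1.86 CPM in KO and 86.4 ± 1.83 CPM in WT, a 1.46-fold lower level (log2 fold change -0.55, SE 0.0350; adjusted p = 3.26e-16 by edgeR's quasi-likelihood test). Ezh1 averaged 52.4 ± 2.27 CPM in KO and 42.0 ± 0.836 CPM in WT and was 1.247-fold higher (log2 fold change 0.32, SE 0.0417; adjusted p = 2.42e-08 by edgeR's quasi-likelihood test).

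Eed, which binds the methylated tail and is the most abundant of the 4 per length, was measured at 50.6, 48.6 and 51.1 CPM in KO and at 50.3, 50.1 and 51.6 CPM in WT. These values overlapped, and the log2 fold change was -0.02 (95% interval -0.10 to 0.06). Eed spans chromosome 7, positions 89954654 to 89980976. Per length, the 4 genes together summed to 65.9 ± 0.953 FPKM in KO and 78.5 ± 1.04 FPKM in WT (fragments scaled to transcript length and depth; SD, n = 3 each). Of the summed FPKM of Ezh1 and Ezh2, Ezh2 made up 44.1%, 40.8% and 43.7% in KO libraries 1, 2 and 3, against 58.9%, 58.4% and 58.7% in WT libraries 1, 2 and 3. Ezh2 was thus the smaller of the 2 paralogs in each KO library and the larger in each WT library.

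Of 9 PRC2 accessory genes, 6 fell and 2 rose (88.9% passed, against 69.2% of all genes tested). The X-linked Rbbp7, encoding a histone-binding subunit, was lower (log2 fold change -0.33, adjusted p = 9.49e-13 by edgeR's quasi-likelihood test), as were Aebp2 (-0.37) and Lcor (-0.44). Jarid2, whose protein joins the same form of PRC2 as AEBP2, was higher (0.42; adjusted p = 1.32e-11 by edgeR's quasi-likelihood test). The median log2 fold change of these 9 genes was -0.33. Kdm6b, which encodes an H3K27me3 demethylase known to be inducible in stimulated macrophages, was the least abundant of all 46 genes per length, at 0.927 FPKM in KO and 0.943 FPKM in WT. Its counts gave 6.497, 5.773 and 6.063 CPM in KO and 6.281, 5.404 and 6.144 CPM in WT, which overlapped, with a log2 fold change of 0.04 (95% interval -0.18 to 0.26).

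Among the H4K20 writers, KMT5A places the first methyl group and is known to accumulate late in the cell cycle, while KMT5B and KMT5C add further ones. Kmt5c rose, Kmt5a fell and Kmt5b did not pass. Kmt5c had the largest rise of the 46 genes, and the H3K79 writer Dot1l the largest fall. Their upstream sequences, from RefSeq on build GRCm38.p6 and in the same notation, end before the first exon annotated in the window by GENCODE M21 or RefSeq. The start in the promoter table is position 4740127 for Kmt5c, 80755203 for Dot1l and 3474986 for Suv39h2, so 35, 102 and 45 bases between the stretch and the start are not shown.
Kmt5c, chr7:4739877-4740091, plus strand: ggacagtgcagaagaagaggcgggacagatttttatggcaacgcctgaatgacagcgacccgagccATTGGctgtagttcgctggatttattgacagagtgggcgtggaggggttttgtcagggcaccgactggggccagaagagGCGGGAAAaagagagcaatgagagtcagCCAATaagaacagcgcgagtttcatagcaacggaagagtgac
Dot1l, chr10:80754953-80755100, plus strand: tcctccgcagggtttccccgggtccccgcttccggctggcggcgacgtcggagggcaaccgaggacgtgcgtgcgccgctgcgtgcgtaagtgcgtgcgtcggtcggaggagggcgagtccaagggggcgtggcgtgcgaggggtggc
Suv39h2, chr2:3475032-3475236, minus strand: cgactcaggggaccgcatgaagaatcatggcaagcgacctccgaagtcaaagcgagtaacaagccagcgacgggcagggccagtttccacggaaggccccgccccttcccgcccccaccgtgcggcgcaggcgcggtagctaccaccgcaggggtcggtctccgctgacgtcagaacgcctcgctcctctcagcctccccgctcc
The Kmt5c stretch held CCAAT matches 184 and 77 bases before that start and an E2F match on the minus strand 105 bases before it. The printed stretches of Dot1l and of Suv39h2, an H3K9 writer described with its class, held none of the 3 motifs, while the searched window of Suv39h2 held a CHR match at base 20 after its start. A match is a description of letters only.

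Kmt5c was measured at 19.79, 19.97 and 18.09 CPM in KO libraries 1, 2 and 3, against 9.716, 8.942 and 9.313 CPM in WT libraries 1, 2 and 3. Each KO library lay above each WT library, with means of 19.3 ± 1.04 CPM in KO and 9.32 ± 0.387 CPM in WT (SD, n = 3 each). The level was 2.07-fold higher in KO (log2 fold change 1.05, SE 0.0730; adjusted p = 3.62e-15 by edgeR's quasi-likelihood test). Kmt5c spans chromosome 7, positions 4740092 to 4747514. Kmt5b, with 32.0 ± 1.22 CPM in KO and 32.2 ± 0.754 CPM in WT, had a log2 fold change of -0.01 (95% interval -0.11 to 0.09). Kmt5c made up 59.8%, 59.2% and 57.8% of the summed FPKM of Kmt5b and Kmt5c in the KO libraries, against 40.0%, 40.0% and 40.1% in the WT libraries, so the larger paralog was Kmt5c in each KO library and Kmt5b in each WT library.

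Kmt5a was measured at 120.5, 118.1 and 118.8 CPM in KO libraries 1, 2 and 3, against 162, 173 and 162 CPM in WT libraries 1, 2 and 3. The groups did not overlap, and Kmt5a was 1.39-fold lower in KO (log2 fold change -0.47, SE 0.0288; adjusted p = 7.74e-17 by edgeR's quasi-likelihood test). It spans chromosome 5, positions 124439930 to 124462311. Per length, Kmt5a was the most abundant of the 46 genes in WT and the second in KO, at 48.7 ± 1.07 FPKM in KO and 70.9 ± 2.58 FPKM in WT. The 3 H4K20 writers together summed to less in KO, at 64.9 ± 1.47 FPKM, than in WT, at 82.9 ± 2.21 FPKM, although Kmt5c was higher.

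Dot1l encodes the only known writer of H3K79 methylation, a mark of transcribed genes. It was measured at 43.8, 48.5 and 48.3 CPM in KO libraries 1, 2 and 3, against 87.5, 89.7 and 93.8 CPM in WT libraries 1, 2 and 3. The groups lay far apart, with means of 46.8 ± 2.67 CPM in KO and 90.3 ± 3.16 CPM in WT (SD, n = 3 each). Dot1l was 1.93-fold lower in KO (log2 fold change -0.95, SE 0.0392; adjusted p = 7.91e-22 by edgeR's quasi-likelihood test). It spans chromosome 10, positions 80755101 to 80795461. On the FPKM scale its level was 6.94 ± 0.384 in KO and 14.05 ± 0.471 in WT, which placed it 28th of the 46 genes in KO and 15th in WT.

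**Figure D3:**
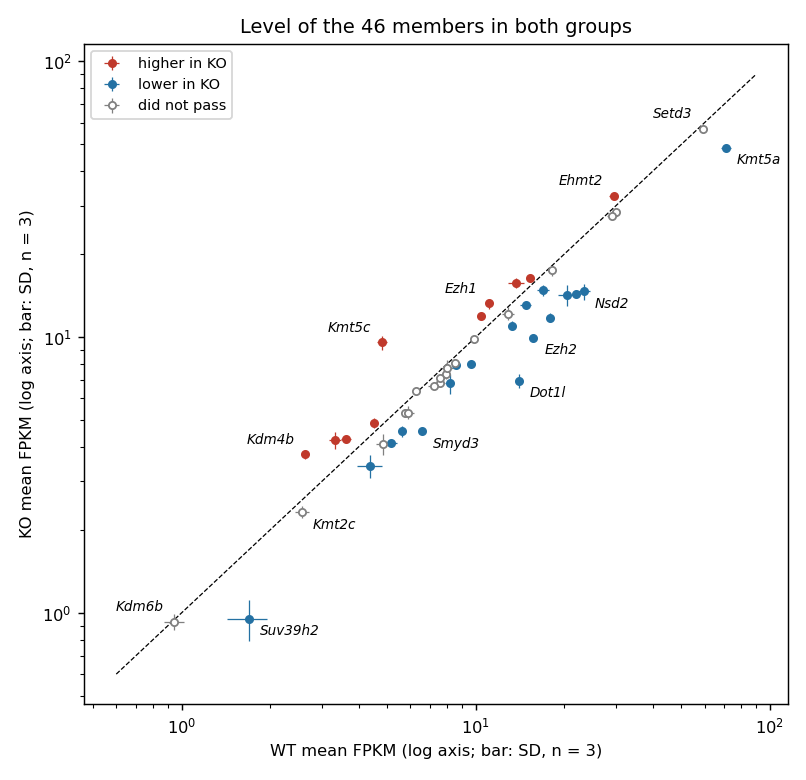
Mean level of the 46 genes per length, in FPKM, in KO (y axis) and WT (x axis), both on log axes (bars, SD, n = 3; dashed line, equal levels). Kmt5a and Setd3 are the highest in both groups and Suv39h2 and Kdm6b the lowest; Kmt5c lies above the line and Dot1l below it.

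The H3K9 writers showed changes in both directions. Ehmt2 and Setdb1 rose, Suv39h2 and Suv39h1 fell, and Ehmt1, Setdb2 and Prdm2 did not pass. Their summed level depended on the unit. It was nearly equal between groups in FPKM, at 82.2 ± 0.921 FPKM in KO and 82.6 ± 1.72 FPKM in WT. In CPM the sum was higher in KO, at 321.4 to 329.5 CPM, than in WT, at 304.3 to 319.2 CPM. EHMT2, also called G9a, forms a heterodimer with EHMT1 that writes H3K9me1 and H3K9me2 in euchromatin, and Ehmt2 was the most abundant gene of the class. It was measured at 117.3, 119.2 and 123.0 CPM in KO libraries 1, 2 and 3, against 101.5, 101.6 and 107.9 CPM in WT libraries 1, 2 and 3. Each KO library lay above each WT library, by a mean of 1.16-fold (log2 fold change 0.21, SE 0.0307; adjusted p = 2.29e-07 by edgeR's quasi-likelihood test). Ehmt2 spans chromosome 17, positions 34898463 to 34914073. Its partner Ehmt1 had a log2 fold change of -0.01 (95% interval -0.10 to 0.08).

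Suv39h1 and Suv39h2 encode the writers of H3K9me3 at constitutive heterochromatin. Suv39h2 was measured at 4.37, 3.12 and 4.08 CPM in KO libraries 1, 2 and 3, against 5.69, 7.71 and 6.24 CPM in WT libraries 1, 2 and 3. The groups did not overlap, but this was one of the least abundant of the 46 genes, with means of 3.85 ± 0.654 CPM in KO and 6.55 ± 1.05 CPM in WT (SD, n = 3 each). Suv39h2 was 1.70-fold lower in KO (log2 fold change -0.76, SE 0.132; adjusted p = 4.08e-06 by edgeR's quasi-likelihood test). It spans chromosome 2, positions 3455815 to 3474986. Suv39h1, on the X chromosome, was 1.11-fold lower (log2 fold change -0.15; adjusted p = 0.00412 by edgeR's quasi-likelihood test), and it made up most of the summed FPKM of the family in both groups, with Suv39h2 at 6.07% in KO and 9.05% in WT. Setdb1, whose protein silences retroelements together with TRIM28, was 1.12-fold higher (log2 fold change 0.16). Setdb2 had a log2 fold change of -0.18 (95% interval -0.34 to -0.01; adjusted p = 0.0516 by edgeR's quasi-likelihood test), and Prdm2 one of -0.09 (adjusted p = 0.0818 by edgeR's quasi-likelihood test).

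Of 12 genes for H3K9 methyl readers and silencing partners, 5 fell and 1 rose, with a median log2 fold change of -0.09. Cbx3, encoding the reader HP1 gamma, was lower (log2 fold change -0.33), as were Morc2a (-0.27) and Mphosph8 (-0.24), which act in silencing by the HUSH complex. Atf7ip, encoding a partner that stabilises SETDB1, was higher (0.17).

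Of the 5 H3K36 writers, Nsd2, Ash1l, Nsd3 and Nsd1 fell, Setd2 did not pass and none rose. NSD1, NSD2 and NSD3 write H3K36me2, ASH1L does so near active promoters, and SETD2 writes H3K36me3 behind elongating polymerase. Nsd2, the most abundant of the 5, was measured at 96.4, 97.2 and 91.8 CPM in KO libraries 1, 2 and 3, against 135.0, 141.9 and 136.2 CPM in WT libraries 1, 2 and 3. The groups did not overlap, and Nsd2 was 1.45-fold lower in KO (log2 fold change -0.53, SE 0.0303; adjusted p = 1.04e-17 by edgeR's quasi-likelihood test). Nsd2 spans chromosome 5, positions 33820676 to 33897966. Ash1l was 1.22-fold lower (log2 fold change -0.28) and Nsd3 1.11-fold lower (-0.16). Nsd1 was 1.05-fold lower (-0.07; adjusted p = 0.0495 by edgeR's quasi-likelihood test), a call that was lost when single libraries were left out. Setd2 had a log2 fold change of -0.08 (95% interval -0.16 to -0.01; adjusted p = 0.051 by edgeR's quasi-likelihood test), with groups that did not overlap. In the summed FPKM of the 3 NSD genes, Nsd2 made up 41.1 ± 1.31% in KO and 49.9 ± 0.565% in WT. The class summed to 46.6 ± 1.18 FPKM in KO and 59.3 ± 2.11 FPKM in WT. On the erasing side, Kdm2a was measured at 78.3, 83.9 and 76.5 CPM in KO and at 83.0, 79.8 and 78.4 CPM in WT, which overlapped, and its paralog Kdm2b, whose protein also anchors a PRC1 complex at CpG islands, had a log2 fold change of 0.08 (95% interval -0.02 to 0.17). Neither passed.

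**Figure D4:**
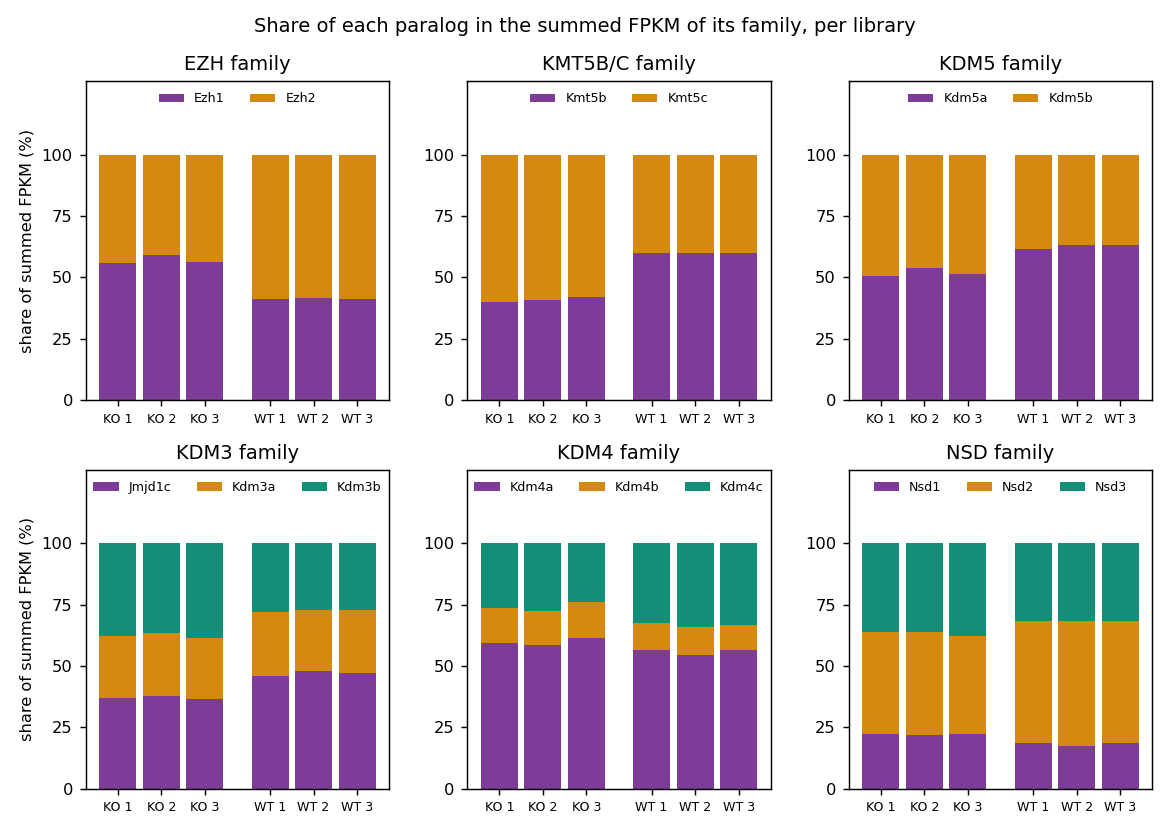
Share of each paralog in the summed FPKM of its family (y axis, percent, from 0), for each KO and WT library (bars), in 6 families. The KDM5 panel holds Kdm5a and Kdm5b only, without the sex-linked Kdm5c and Kdm5d. Ezh2 and Kmt5c change places with their paralogs between groups, with Ezh2 at 40.8% to 44.1% in KO and 58.4% to 58.9% in WT.

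Of the H3K4 writers, the mark most closely tied to menin, only Setd1b rose, and Setd1a, Setd7 and Kmt2c did not pass. SETD1A and SETD1B are the alternative catalytic subunits of the complexes that place most H3K4me3. Setd1b was 1.23-fold higher in KO (log2 fold change 0.30, SE 0.0467; adjusted p = 8.50e-07 by edgeR's quasi-likelihood test). Setd1a, the most abundant of the class per length, was measured at 43.6, 42.3 and 40.4 CPM in KO and at 44.6, 42.5 and 43.7 CPM in WT, which overlapped, with a log2 fold change of -0.05 (95% interval -0.14 to 0.04). Setd1b made up 36.8% of the summed FPKM of the pair in KO and 31.4% in WT. Kmt2c, encoding the enhancer enzyme MLL3, had a log2 fold change of -0.09 (95% interval -0.19 to 0.00), and Setd7, a monomethyltransferase with many substrates other than histones, one of -0.07 (95% interval -0.16 to 0.02). The 4 genes summed to 19.26 ± 0.305 FPKM in KO and 19.92 ± 0.399 FPKM in WT.

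The partners of these enzymes were described from lists of complex subunits. Over all genes tested 69.2% passed, which is the background for the counts of every list. Of 8 genes for subunits of H3K4 writer complexes, some of them shared by all these complexes and others, such as Cxxc1, not, 3 fell and 1 rose, with a median log2 fold change of -0.05. The lower ones were the X-linked Hcfc1 (-0.15), Wdr5 (-0.14) and Dpy30, and the higher one was Cxxc1 (0.10). Among the 4 genes of the menin complexes, Men1, Kmt2a and Psip1 fell. Kmt2a, encoding MLL1, and Psip1, encoding the chromatin tether of menin, each had a log2 fold change of -0.22, and Kmt2b, encoding MLL2, had 0.02 and did not pass. All 5 tested genes of the MLL3 and MLL4 complexes passed, 2 higher and 3 lower. Kdm6a (0.49), which is X-linked and described below with its Y-linked paralog, had the largest change and was higher. Pagr1a (0.15), which was named after its value was seen, was also higher, and Paxip1 (-0.31), Kmt2d (-0.20) and Ncoa6 (-0.11) were lower.

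The H3K4 erasers held 2 genes that fell, Kdm5a and Kdm1b, 1 that rose, Kdm5b, and 1 that did not pass, Kdm1a. Kdm1a encodes LSD1, which acts with CoREST and removes mono- and dimethylation. It was measured at 47.9, 51.2 and 46.7 CPM in KO and at 48.4, 48.0 and 48.9 CPM in WT. These values overlapped, and the log2 fold change was 0.00 (95% interval -0.08 to 0.09). Its paralog Kdm1b was 1.23-fold lower. The KDM5 enzymes remove di- and trimethylation of H3K4. Kdm5b averaged 23.8 ± 1.97 CPM in KO and 18.3 ± 0.635 CPM in WT, a 1.31-fold higher level (log2 fold change 0.38, SE 0.0623; adjusted p = 1.41e-06 by edgeR's quasi-likelihood test), whereas Kdm5a averaged 47.4 CPM in KO and 56.0 CPM in WT, a 1.18-fold lower level (log2 fold change -0.24, SE 0.0394; adjusted p = 1.48e-06 by edgeR's quasi-likelihood test). Of the summed FPKM of Kdm5a and Kdm5b alone, Kdm5b made up 48.1 ± 1.83% in KO and 37.2 ± 1.02% in WT. Their sex-linked paralogs Kdm5c and Kdm5d, described below, were not part of this sum. Of 10 tested LSD1 and CoREST partners, 4 rose and 3 fell. Among them Rcor1, encoding CoREST, was lower (log2 fold change -0.31). Phf21a (0.51), the X-linked Zmym3 (0.51) and Hmg20b (0.24) were higher.

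The H3K9 erasers split between paralogs of the same family. In the KDM3 family, whose enzymes remove mono- and dimethylation, Jmjd1c and Kdm3a fell and Kdm3b rose. Jmjd1c, the most abundant of the class in WT, was measured at 66.6, 65.5 and 63.6 CPM in KO libraries 1, 2 and 3, against 95.6, 97.6 and 95.3 CPM in WT libraries 1, 2 and 3. The groups did not overlap, and Jmjd1c was 1.47-fold lower in KO (log2 fold change -0.56, SE 0.0330; adjusted p = 3.11e-17 by edgeR's quasi-likelihood test). It spans chromosome 10, positions 67096351 to 67256326. Kdm3b averaged 82.5 ± 1.93 CPM in KO and 69.5 ± 1.36 CPM in WT, a 1.19-fold higher level (log2 fold change 0.25, SE 0.0338; adjusted p = 5.17e-08 by edgeR's quasi-likelihood test). In the summed FPKM of the family, Kdm3b made up 37.6% in KO and 27.5% in WT, and Jmjd1c 37.1% in KO and 47.2% in WT, while the share of Kdm3a overlapped between the groups.

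The KDM4 family removes trimethylation of H3K9 and H3K36. Kdm4b and Kdm4a rose in KO and Kdm4c fell. Kdm4b averaged 17.7 ± 0.826 CPM in KO and 12.03 ± 0.176 CPM in WT, a 1.47-fold higher level (log2 fold change 0.56, SE 0.0688; adjusted p = 6.51e-09 by edgeR's quasi-likelihood test), and it reached 1.5-fold without KO replicate 1. Kdm4a was 1.20-fold higher and Kdm4c 1.14-fold lower. Kdm4c made up 25.9% of the summed FPKM of the family in KO and 33.3% in WT. Of the PHF enzymes, which bind H3K4me3 and erase H3K9 methylation nearby, Kdm7a, whose protein can also act on H3K27 methylation, was 1.13-fold higher, and Phf2 (log2 fold change 0.02, 95% interval -0.08 to 0.12) and the X-linked Phf8 (0.09, 95% interval 0.00 to 0.18) did not pass. The 9 H3K9 erasers summed to 76.99 ± 0.542 FPKM in KO and 81.3 ± 1.31 FPKM in WT. In CPM their sums overlapped, at 413.3 to 418.5 CPM in KO and 411.1 to 422.2 CPM in WT.

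Across paralog families, the library shares of the KO and WT groups did not overlap for EZH, SUV39H, EHMT, SETDB, SETD1, NSD, KMT5B/C, KDM4, KDM5 and the SMYD pair, nor for Kdm3b and Jmjd1c in KDM3 or Kdm7a in KDM7. KDM5 here means Kdm5a and Kdm5b, without the sex-linked Kdm5c and Kdm5d. Among the smaller shifts, Ehmt2 made up 80.2% of its pair in KO and 77.7% in WT, and Setdb1 79.99% in KO and 75.98% in WT. The shares overlapped for the KDM1 and KDM2 families and for Phf2 and Phf8. Shares were not tested, and they do not depend on how libraries are scaled. No background was computed for shares, and 71.2% of all genes tested did not overlap in CPM between the groups. The SMYD shift includes the FPKM change of Smyd3, whose log2 ratio was -0.52 in FPKM and -0.22 in counts. The 46 genes together summed to 531.4 to 540.0 FPKM in KO and 607.5 to 613.0 FPKM in WT, on a scale where the log2 ratio of all genes tested had a median of -0.06.

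Of the 6 other family members, Jmjd6, Setd5 and Smyd3 fell, and Setd3, Smyd2 and Kmt2e did not pass. Setd3, which methylates a histidine of actin, was measured at 138.2, 138.2 and 136.4 CPM in KO and at 139.0, 135.7 and 137.9 CPM in WT, with a log2 fold change of 0.00 (95% interval -0.05 to 0.05). It was the most abundant of the 46 genes per length in KO, at 56.7 ± 0.662 FPKM, and the second in WT, at 59.2 ± 0.754 FPKM, and spans chromosome 12, positions 108106431 to 108179345. Jmjd6, a JmjC enzyme that hydroxylates lysines of splicing factors, averaged 19.8 ± 1.79 CPM in KO and 27.2 ± 1.88 CPM in WT and was 1.37-fold lower (log2 fold change -0.46, SE 0.0623; adjusted p = 5.02e-08 by edgeR's quasi-likelihood test). Setd5 was 1.17-fold lower, and Smyd2 (log2 fold change -0.02) and Kmt2e (0.01), whose SET domain is held to be inactive, had intervals that included 0. Smyd3 differed between units. Its counts gave a log2 fold change of -0.22 (adjusted p = 0.028 by edgeR's quasi-likelihood test), a call lost when single libraries were left out, while the authors' FPKM values were 4.55 in KO and 6.55 in WT, a log2 ratio of -0.52.

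**Figure D5:**
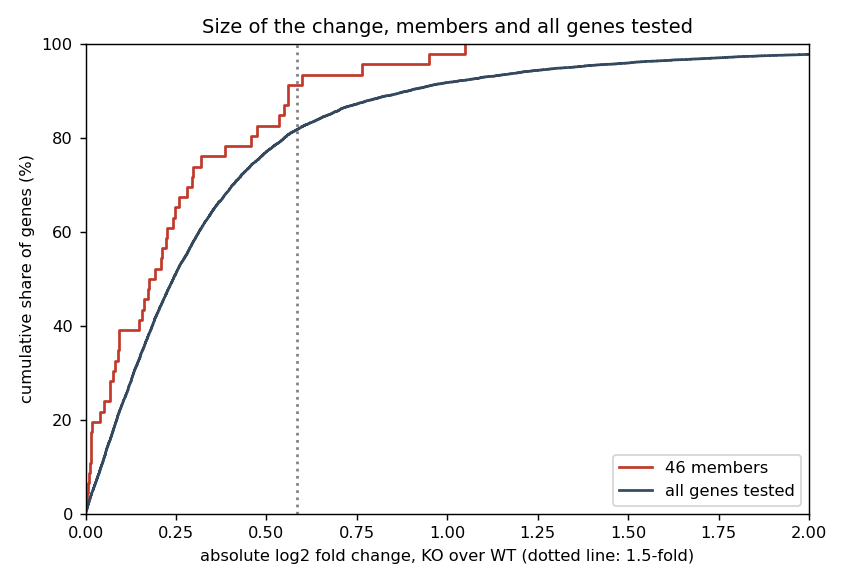
Cumulative share of genes (y axis, percent) up to a given absolute log2 fold change (x axis; dotted line, 1.5-fold), for the 46 genes and for all 11817 genes tested. The line of the 46 genes lies above that of all genes, with medians of 0.18 and 0.24.

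Other measurements moved with the groups and stand beside these results. Over all genes tested, 34.4% were called higher and 34.9% lower in KO. All 30 genes on a list for late cell cycle (G2 and M phases) were lower in KO, with a median log2 fold change of -1.29 and a summed level of 722.9 to 734.7 CPM in KO and 1730 to 1738 CPM in WT. Of 28 S phase genes, 14 were lower and 8 higher, with summed levels of 2071 to 2079 CPM in KO and 2283 to 2287 CPM in WT. Among 12 fibroblast and mesothelial markers, all 10 tested were lower in KO, with a summed level of 15.02 to 18.29 CPM in KO and 91.38 to 94.51 CPM in WT, and Msln was at 0 in all KO and in 2 of 3 WT libraries. Of 6 neutrophil markers listed, 4 were tested, 3 higher and 1 lower, with sums of 137.6 to 138.0 CPM in KO and 57.95 to 61.07 CPM in WT. Most of the sum came from S100a8 (71.0 ± 1.82 CPM in KO and 37.9 ± 2.04 CPM in WT) and Csf3r (63.3 ± 2.13 CPM in KO and 19.7 ± 0.539 CPM in WT). S100a9 was at 3.14 CPM in KO and 0.980 CPM in WT, and Mpo, the lower one, at 0.170 and 0.702 CPM. Retnlg and Elane had at most 2 counts in any library. Lymphocyte markers summed to 2.94 to 3.37 CPM in KO and 0.683 to 0.834 CPM in WT. Most of the sum in KO came from Klrb1c alone (2.55 ± 0.142 CPM in KO and 0.0655 ± 0.0750 CPM in WT). The other lymphocyte markers had at most 6 counts in any library, with Nkg7 at 0 in all KO libraries and at most 1 count in a WT library. Klrb1c, the only lymphocyte marker tested, was higher, with 48, 53 and 49 counts in KO libraries and 1, 3 and 0 counts in WT libraries. Epithelial markers summed to 0.815 to 1.28 CPM in KO and 2.16 to 2.44 CPM in WT, with Krt18 at 0 in 2 of 3 KO libraries and 1 of 3 WT libraries. The part of these cell types and phases in the changes of the 46 genes was not tested.

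Histone demethylase genes on the sex chromosomes also separated the groups. Kdm5d, on the Y chromosome, had 0 counts in each KO library and 323, 342 and 283 counts in WT libraries 1, 2 and 3, which, with the floor at 3 counts in a library, is at least 101-fold lower in KO. The other Y-linked gene, Uty, had 0, 1 and 2 counts in KO libraries and 444, 408 and 407 counts in WT libraries. Their X-linked paralogs, an H3K4 and an H3K27 demethylase, were higher in KO. Kdm5c averaged 122.2 ± 1.59 CPM in KO and 83.6 ± 4.54 CPM in WT, a 1.46-fold higher level (adjusted p = 5.54e-17 by edgeR's quasi-likelihood test), and Kdm6a averaged 37.9 ± 1.38 CPM in KO and 26.98 ± 1.17 CPM in WT, a 1.41-fold higher level (adjusted p = 3.97e-11 by edgeR's quasi-likelihood test). The Men1 genotype and the presence of Y-linked transcripts cannot be told apart in these 6 libraries. Among the 46 genes, Suv39h1 and Phf8 lie on the X chromosome and none on the Y.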

How the data were processed

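RNA of sorted cells labelled as alveolar macrophages was sequenced after polyA selection in 3 KO and 3 WT libraries, per the labels' protocols. The submitters' processing notes name HISAT, Bowtie2 and GRCm38.p6 without saying what each did; the counting tool and its annotation remain not given in the sources used here. One deposited table holds the authors' expected counts, which are not whole for 8.66% to 9.19% of genes and were rounded. It also holds, per the file headers, the authors' FPKM and TPM values and a deposited normalised count signal, which was not used. A second deposited table, made for a heat map, gives the authors' log2(FPKM + 1) for 6784 genes; it lists 25 of the 46 genes, all among those called here.

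Counts were tested with edgeR 4.0.16 in R 4.3.3 (quasi-likelihood test, TMM scaling, filterByExpr, group as the only term), with Benjamini-Hochberg adjustment over 11817 genes and a threshold of 0.05; 4007 genes were filtered out. Beside it, genes changed at least 1.5-fold were counted. CPM values use the TMM-adjusted library sizes, and a count of 3, the floor for a count of 0, equals 0.146 to 0.153 CPM. Levels of different genes were compared in FPKM only. Shares of paralogs were computed per library with no test. The 10 most abundant genes took 12.79% to 13.68% of counts. Libraries of a group differed beyond counting noise and each counted as 1 sample. Gene tests were checked on simulated counts drawn with the spread estimated from these libraries. That check cannot tell whether separate animals would differ more. Overlapping and antisense genes are uncertain, since strand use is not given.

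The 46 genes, the classes and the lists were chosen with earlier results of these data known. Library values were given for genes changed at least 1.5-fold and for the most abundant gene of each class by FPKM, and means for other genes. From each list up to 4 genes by smallest p were named, but all 7 alveolar macrophage markers tested were named. The markers named at or near 0 counts were picked after their values were seen. Coordinates and promoter sequences come from RefSeq tables of GRCm38.p6, which matched 15774 of 15824 genes; promoters were at hand for 33 of 46 genes. Alternatives were other scalings and filters, the replicate number as a block, each library left out, DESeq2 1.42.0, limma 3.58.1 (voom, and log2 of FPKM or TPM with pseudocounts of 1 or 0.1), other thresholds, an assumed spread and a fit without X and Y genes; TPM values centred on the median of all genes were added after seeing the data. Python 3.11.15, pandas 2.3.3 and matplotlib 3.10.9 were used for summaries and plots.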

Additional observations from a re-analysis of the deposited data

How the results depend on the processing

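The 10 higher and 18 lower genes became 4 and 8 when the biological coefficient of variation was set at 0.1, and 6 and 32 with limma on log2(TPM + 1), where the median of all genes was shifted by -0.12. Leaving out each library gave 10 in every case for the higher genes and 16 to 19 for the lower ones. The count of genes at least 1.5-fold higher was 1 to 2 when a library was left out, with Kdm4b added without KO replicate 1. The count of genes at least 1.5-fold lower was 6 with total-count scaling, with limma on log2(FPKM + 0.1) and with limma on log2(TPM + 1), against 3, and 2 to 3 when a library was left out. Genes that had not passed and then passed with the opposite sign were Kdm1a (-0.133), Kmt2e (-0.148) and Setd3 (-0.142), each on log2(TPM + 1), and Setd3 (-0.061) on log2(FPKM + 1) over all listed genes; the cause was not tested. DESeq2 called 10 higher and 16 lower, and limma-voom 10 and 18. For the 46 genes taken singly, 925 alternative results kept their direction and their side of the threshold, 38 lost the call and 43 gained one. A change of sign without a call in either setting was not counted as reversed. Of the 28 called genes, 22 passed under every alternative other than the assumed spread, Ehmt2, Setdb1, Kdm4a and Kdm7a lost the call on log2(TPM + 1), Kdm7a also with limma on FPKM, and Nsd1 and Smyd3 lost it when a library was left out and with DESeq2. The lists held 146 called genes, 141 to 144 when a library was left out. Paralog shares from TPM moved by less than 1 SD. Same-numbered KO and WT libraries correlated in their deviations at 0.097, 0.033 and 0.053, so the numbers were not taken as pairs, although each library correlated best with its own number, which is a hint from the data and not the design; with the replicate number as a block, 10 genes were higher and 21 lower. Depth limited Suv39h2 and Kdm6b most, the least abundant genes, with standard errors of 0.132 and 0.108 on the log2 scale.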

Other observations

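Polycomb repressive complex 1 (PRC1), which reads H3K27 methylation through its CBX subunits and places ubiquitin on histone H2A, had changes in both directions. Of 18 tested subunit genes, 5 rose and 7 fell, with a median log2 fold change of -0.02. Pcgf3 (log2 fold change -0.66) and Rybp (-0.38) were lower in KO, and Cbx8 (0.93) and Ring1 (0.44) were higher.

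Of 8 arginine methyltransferase genes, 3 rose and 2 fell, with a median log2 fold change of 0.00. Prmt6 (-0.38) and Prmt5 (-0.20) were lower in KO, and Prmt7 (0.21) and Prmt1 (0.09) were higher. Of 21 tested genes for other SET-domain and JmjC-domain proteins, 5 rose and 7 fell. Jmjd8 was 1.66-fold higher (log2 fold change 0.73), Smyd5 was higher (0.25) and Jmjd4 was lower (-0.55).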
